A study of Mus musculus with 7 samples.

Results

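Cytochrome P450 enzymes of families 1 to 3 carry out much of the oxidation of drugs, pollutants, steroids and fatty acids in the liver. The genes described here are those whose symbol on the array starts with Cyp1, Cyp2 or Cyp3 followed by a letter, leaving out the Cyp2b subfamily, Cyp2e1 and Cyp1a2. The rule used no measured value, though the members were chosen with earlier results of these data known. It gave 45 genes, measured by 48 probes, of the 52 genes of these families on the array and of 16468 named genes in all. By subfamily they were 2 Cyp1, 3 Cyp2a, 12 Cyp2c, 8 Cyp2d, 6 Cyp2j and 6 Cyp3a genes, with 8 single members of other Cyp2 subfamilies. Among them, Cyp2a21-ps and Cyp2j7 are annotated as pseudogenes and Cyp2d13 as a transcribed pseudogene.

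Liver RNA was compared in 3 mice transgenic for Zfp90, a zinc finger protein (1 female, 2 males), and 4 wild-type littermates (1 female, 3 males). RNA of single animals (Cy5) was hybridised together with pooled liver RNA of 4 wild-type males and females (Cy3), and the design included dye swaps. The labels give no age, strain or treatment, and the transgene's promoter is likewise not stated there. Values are log2 ratios of an animal to the pool, so 0 is the pool's level and 1 is 2-fold above it. The ratio shows no absolute level, and levels of different genes are not compared. Each difference carries its standard error (SE), for 3 transgenic against 4 wild-type animals in a limma model with sex, with p-values adjusted over 22218 features (named genes plus unnamed probes) and called at 0.05. Whether liver lost cells of a type or RNA per cell cannot be told apart in whole tissue.

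Zfp90 itself read 0.58 and 0.45 in the transgenic males and from -0.29 to -0.11 in the wild-type males. It did not separate the females, at 0.34 in the transgenic animal and 0.37 in the animal labelled wild type. Where a named gene's genotype difference moved by more than 1.5 times or turned in males alone, that value is given as well. Hepatocyte markers were measured for 12 of 12 genes, with a median genotype difference of -0.08, or -0.03 in males alone. The array medians lay between -0.01 and 0.03, and 3 pairs of arrays correlated below -0.3 over all probes (-0.497 to -0.307), with a female in each pair. The direction of the ratios was read from the Y-linked gene Kdm5d, which lay at -3.22 and -2.54 in the females and from 0.14 to 0.66 in the males. With every sign turned, each difference below changes its sign and keeps its p.

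P450 enzymes sit in the membrane of the endoplasmic reticulum, hold a haem group and receive electrons from P450 oxidoreductase and cytochrome b5. In mouse liver the Cyp1 genes respond to the aryl hydrocarbon receptor, while many Cyp2 and Cyp3 genes respond to the nuclear receptors CAR and PXR. Several are set by sex through the rhythm of growth hormone release: Cyp2d9 is a classical male-specific transcript and Cyp2c37, Cyp2c39, Cyp3a16 and Cyp3a41a belong to clusters with female-biased members. Most of the genes lie in tandem clusters, with the Cyp2c genes on chromosome 19, the Cyp2d genes on chromosome 15, the Cyp2j genes on chromosome 4 and the Cyp3a genes on chromosome 5. Some members of a cluster are close paralogs, and probe sequences were not used here, so a probe's signal may be shared between them.

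The pair of Cyp2d genes below is shown because the sexes differed very unequally in them, as given further on. RefSeq's sequence upstream of the annotated start is printed 5′ to 3′ on the gene's strand, build GRCm38.p6, with capitals marking bases that differ from the paired gene or lie opposite a gap in their alignment. Cyp2d9 is at chr15:82452127-82452317 on the plus strand and Cyp2d10 at chr15:82407254-82407444 on the minus strand. The printed stretches, of 191 bases, were identical at 153 of 195 aligned positions (78.5%), with 38 bases in capitals in each. That of Cyp2d9 stops short of the gene's start. The full windows were identical at 209 of 254 aligned positions (82.3%).
Cyp2d9: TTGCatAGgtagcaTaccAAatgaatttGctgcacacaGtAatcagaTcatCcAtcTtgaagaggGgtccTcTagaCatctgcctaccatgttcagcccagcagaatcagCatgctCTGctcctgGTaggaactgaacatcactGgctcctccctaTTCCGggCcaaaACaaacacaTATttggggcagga
Cyp2d10: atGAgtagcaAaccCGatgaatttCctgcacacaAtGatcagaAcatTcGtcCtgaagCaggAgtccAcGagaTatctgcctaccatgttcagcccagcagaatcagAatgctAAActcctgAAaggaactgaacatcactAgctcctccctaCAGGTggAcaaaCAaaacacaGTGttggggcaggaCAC

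The other pairs of paralogs, each with 1 gene of strong female bias, are shown for the same reason. Cyp2c37 (chr19:39992174-39992423) and Cyp2c50 (chr19:40089429-40089678), both on the plus strand, were identical at 215 of 255 aligned positions (84.3%).
Cyp2c37: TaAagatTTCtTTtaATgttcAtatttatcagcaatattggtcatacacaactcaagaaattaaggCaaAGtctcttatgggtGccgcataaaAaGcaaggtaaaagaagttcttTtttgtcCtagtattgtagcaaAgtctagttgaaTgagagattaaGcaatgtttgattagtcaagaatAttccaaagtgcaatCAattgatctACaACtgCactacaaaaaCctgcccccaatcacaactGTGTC
Cyp2c50: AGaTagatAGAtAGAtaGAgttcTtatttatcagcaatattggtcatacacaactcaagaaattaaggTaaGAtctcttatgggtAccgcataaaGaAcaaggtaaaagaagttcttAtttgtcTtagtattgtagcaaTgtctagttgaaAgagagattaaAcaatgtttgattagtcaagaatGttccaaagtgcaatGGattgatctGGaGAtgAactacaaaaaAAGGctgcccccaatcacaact
Cyp3a16 (chr5:145469741-145469973) and Cyp3a41a (chr5:145720154-145720386), both on the minus strand, were identical at 215 of 237 aligned positions (90.7%), with 18 bases in capitals in each. This pair was also shortened, to 233 bases, and its full windows were identical at 231 of 254 aligned positions (90.9%).
Cyp3a16: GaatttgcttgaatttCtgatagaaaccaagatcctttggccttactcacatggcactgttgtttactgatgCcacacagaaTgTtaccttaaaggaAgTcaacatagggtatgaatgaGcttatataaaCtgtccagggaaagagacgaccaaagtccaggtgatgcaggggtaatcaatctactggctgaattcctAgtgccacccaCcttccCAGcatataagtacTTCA
Cyp3a41a: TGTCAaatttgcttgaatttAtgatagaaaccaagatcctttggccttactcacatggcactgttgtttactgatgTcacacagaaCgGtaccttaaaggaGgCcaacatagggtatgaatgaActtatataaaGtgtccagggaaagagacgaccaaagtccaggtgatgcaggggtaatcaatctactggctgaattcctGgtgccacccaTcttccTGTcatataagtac

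Upstream windows of 250 bases were found for 35 of the 45 genes, 38 windows in all, and searched on both strands. The TATA box letters TATAAA were in 17 of the 38 windows (44.7%), against 12.4% of 32851 windows of all genes. The half-site AGGTCA of nuclear receptors was in 10 windows (26.3% against 14.0%), among them those of Cyp2c29, Cyp2c39, Cyp2c70 and Cyp3a11. The core GCGTG bound by the aryl hydrocarbon receptor was in 7 windows (18.4% against 28.2%), including those of Cyp1a1 and Cyp1b1. The STAT5 letters TTCNNNGAA were in 2 windows (5.26% against 7.02%), those of Cyp2j11 and Cyp2j12. A match describes letters in these windows and shows no bound site.

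None of the 45 genes passed the adjusted threshold between transgenic and wild-type animals by limma, and none of the 22218 features did (0%). The smallest adjusted p among them was 0.653, for Cyp2c40. At an unadjusted p under 0.05 there were 3 genes with higher values in transgenic animals (Cyp2a4, Cyp2c55 and Cyp2c70), where 3.82% of all features were, and 3 with lower values (Cyp2c40, Cyp2c67 and Cyp2ab1), where 3.1% were. The median difference of the 45 genes was -0.01, as over all features, with 21 above 0 and 24 below. Their differences were larger in size than over all features, with a median size of 0.19 against 0.09 over all features, and 6 of 45 (13.3%) were at least 0.5 against 2.75% of features. The spread between animals was not compared in the same way, so these sizes do not show a stronger response to genotype. Without wild-type male 3 the unadjusted count was 3 higher and 9 lower, and without the sex term it was 1 higher and 2 lower. How many of all features reached that p in those fits was not counted, so these counts have no background beside them.

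**Figure D1:**
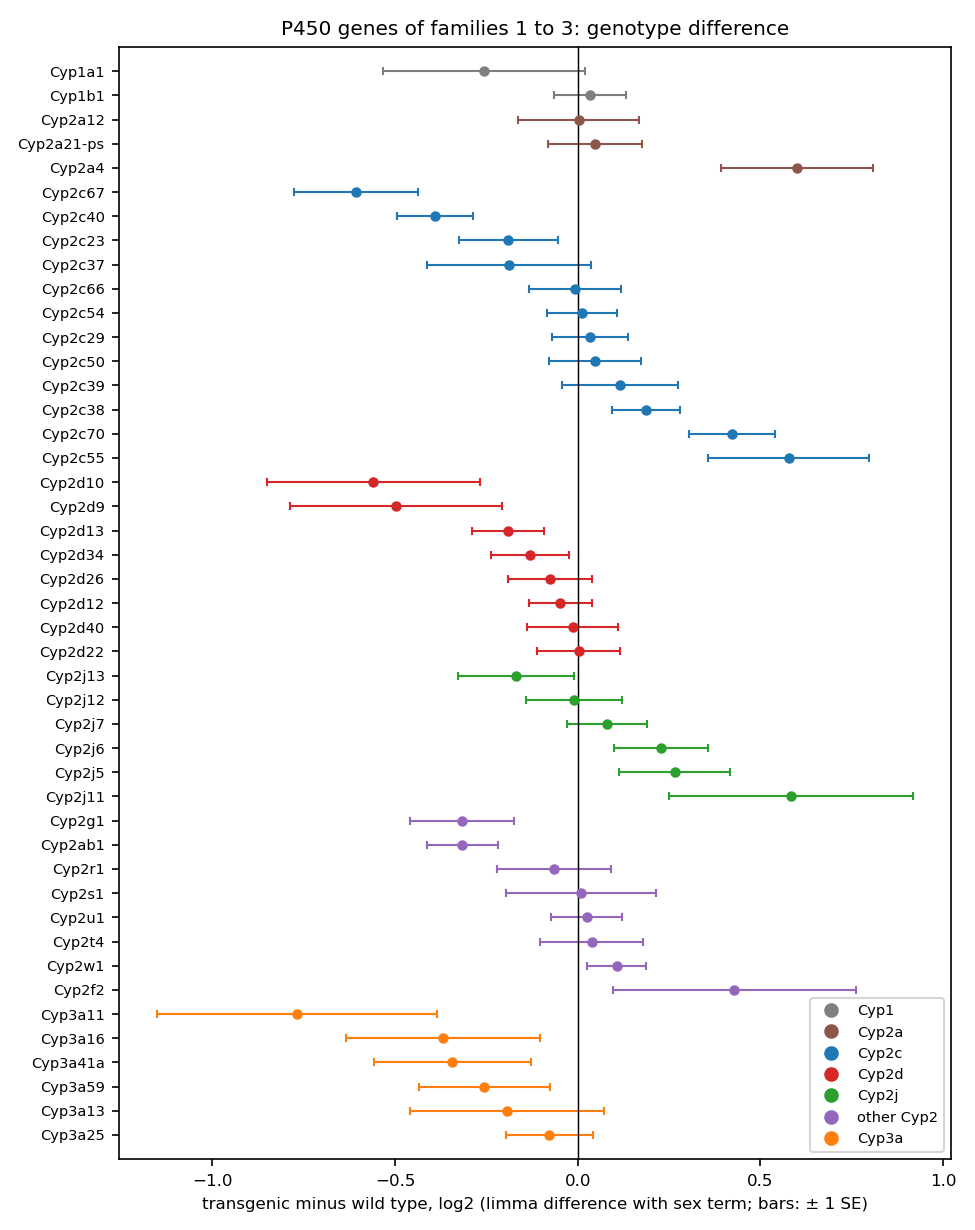
Genotype difference of each of the 45 genes (log2, transgenic minus wild type, points with SE bars from the limma model), grouped by subfamily. All 6 Cyp3a genes lie below 0, as do 11498 of 22218 features, and no gene passed the adjusted threshold.

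All 3 transgenic animals lay below all 4 wild-type animals in 1 gene, Cyp2c40, where 2.84% of features did, and above them in 0 genes, where 3.17% of features did. The separation in Cyp2c40 is that of the mean of its probes, and the genotypes overlapped in its second probe. Among males alone, the 2 transgenic animals lay above all 3 wild-type males in 5 genes (11.2% of features) and below them in 7 (11.4% of features). With 45 genes, the count above was near that background. Males alone gave 0 calls by limma among the 45 genes (0.0315% of features), with 3 higher and 5 lower at an unadjusted p under 0.05 (3.92% and 3.04% of features).

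**Figure D2:**
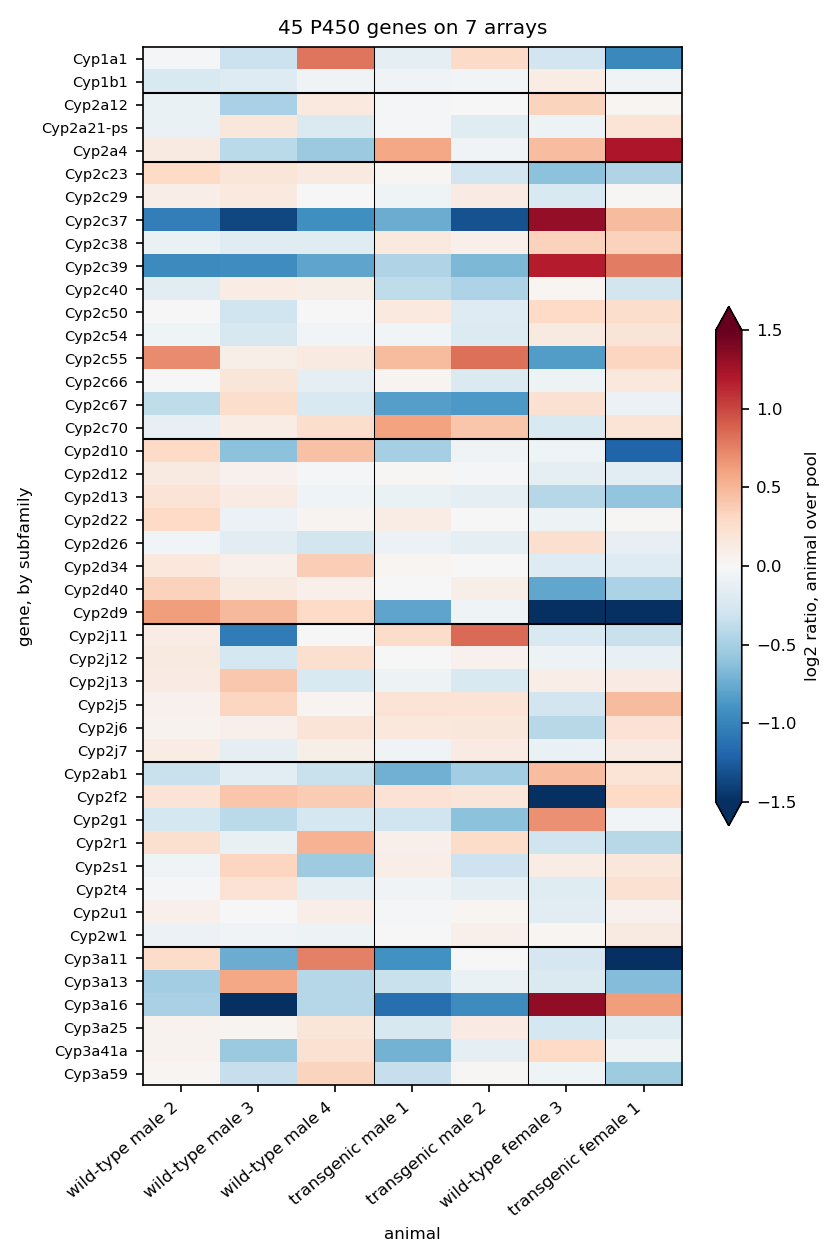
Log2 ratio to the pool of each of the 45 genes (rows, by subfamily) in each of the 7 animals (columns), on a colour scale that ends at 1.5 in either direction. The low values of Cyp2d9 in both females (-5.93 and -5.46) and the high values of Cyp2c37, Cyp2c39 and Cyp3a16 in both females stand out.

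The Cyp2c genes encode mainly epoxygenases and hydroxylases of arachidonic and linoleic acid. Of 12, 7 had a positive and 5 a negative genotype difference, with a median of 0.02, and 0 were called. Cyp2c40 read 0.03 in the female labelled wild type and -0.17, 0.11 and 0.09 in the wild-type males, against -0.27 in the transgenic female and -0.38 and -0.46 in the transgenic males. The groups did not overlap in the mean of its 2 probes. The difference of -0.39 ± 0.10 (adjusted p = 0.653) was -0.43 ± 0.13 in males alone. The probes gave unequal differences, -0.60 ± 0.11 and -0.18 ± 0.15. In the second probe the genotypes overlapped, with 0.06 in the transgenic female and -0.02 in the female labelled wild type.

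Cyp2c67, its neighbour in the cluster, read 0.23 in the female labelled wild type, -0.38, 0.26 and -0.22 in the wild-type males, -0.09 in the transgenic female and -0.82 and -0.86 in the transgenic males. Within each sex the transgenic animals were lower, though the transgenic female lay within the wild-type range, and the difference was -0.61 ± 0.17 (adjusted p = 0.667), or -0.73 ± 0.20 in males alone. Cyp2c70 makes the muricholic acids that set the mouse bile acid pool apart. It read -0.22 in the female labelled wild type and -0.12, 0.11 and 0.27 in the wild-type males, against 0.20 in the transgenic female and 0.60 and 0.41 in the transgenic males. Its transgenic values were highest in the males, the female lay within the wild-type range, and the difference was 0.42 ± 0.12 (adjusted p = 0.667), with males alone at 0.42 ± 0.15.

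Cyp2c55, an inducible hydroxylase of arachidonic acid, read -0.83 in the female labelled wild type, 0.71, 0.08 and 0.14 in the wild-type males, 0.32 in the transgenic female and 0.47 and 0.83 in the transgenic males. The lowest value by far was that of the female labelled wild type. The difference of 0.58 ± 0.22 (adjusted p = 0.72) was 0.34 ± 0.22 in males alone, more than 1.5 times smaller. Of the other Cyp2c genes, Cyp2c38 and Cyp2c39 read higher and Cyp2c23 lower in the transgenic males than in all wild-type males. Their male differences were 0.26 ± 0.10, 0.34 ± 0.12 and -0.34 ± 0.13, and none was called. Cyp2c29, Cyp2c50, Cyp2c54 and Cyp2c66 had genotype differences between -0.01 and 0.05, and between -0.11 and 0.08 in males alone.

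The Cyp2a genes encode steroid hydroxylases. Cyp2a4, which hydroxylates testosterone, read 0.46 in the female labelled wild type, 0.13, -0.40 and -0.55 in the wild-type males, 1.21 in the transgenic female and 0.58 and -0.05 in the transgenic males. The highest 2 values were transgenic, but transgenic male 2 lay among the wild-type males. The difference of 0.60 ± 0.21 (adjusted p = 0.718) was 0.54 ± 0.26 in males alone. Cyp2a12 and the pseudogene Cyp2a21-ps had differences of 0.00 ± 0.17 and 0.05 ± 0.13, and 0.13 ± 0.19 and -0.05 ± 0.15 in males alone.

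**Figure D3:**
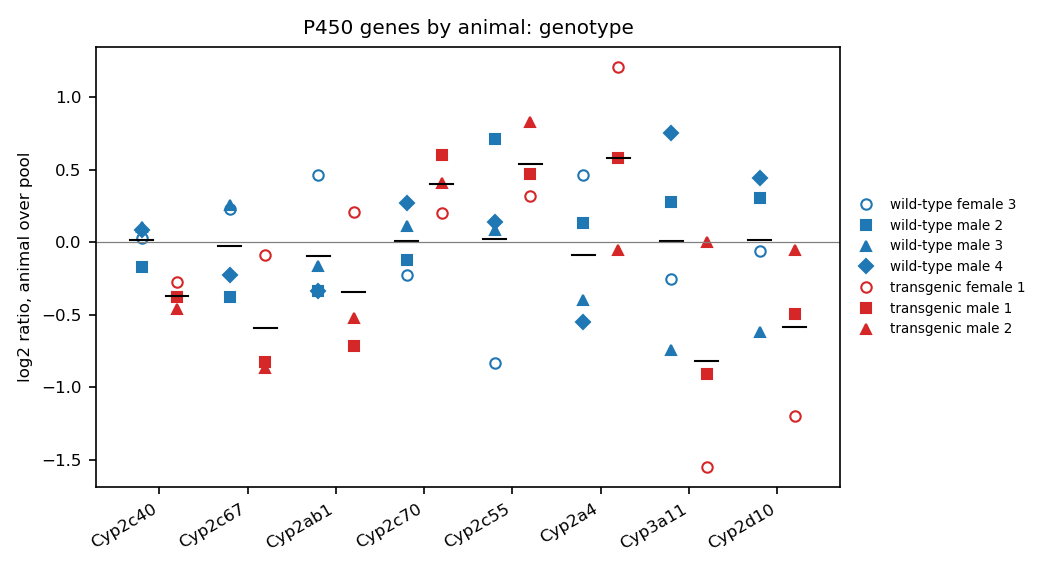
Log2 ratio to the pool of each animal, by genotype and sex, for the 6 genes with an unadjusted genotype p under 0.05, Cyp3a11, and Cyp2d10, which was chosen after its values were seen; black bars are group means. The genotypes overlap in every gene shown except Cyp2c40, which is shown as the mean of its probes.

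All 6 Cyp3a genes, which encode the main drug and steroid oxidases regulated by PXR, had a negative genotype difference, with a median of -0.30. In males alone 6 of 6 were negative, with a median of -0.20, and between the females 5 of 6. Over all features 11498 of 22218 were negative, with 12318 in males alone and 10608 between the females. No Cyp3a gene reached an unadjusted p under 0.05 by limma over both sexes or in males alone. Probes of close paralogs may share signal, so the 6 Cyp3a genes may not be separate readings. Cyp3a11, the most inducible of them, read -0.26 in the female labelled wild type, 0.28, -0.75 and 0.75 in the wild-type males, -1.55 in the transgenic female and -0.91 and 0.00 in the transgenic males. The wild-type males spanned from -0.75 to 0.75, and wild-type male 3 lay below transgenic male 2. The difference was -0.77 ± 0.38 (adjusted p = 0.746), or -0.55 ± 0.46 in males alone.

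Wild-type male 3 was also the lowest wild-type animal in Cyp3a16 (-1.49), Cyp3a41a (-0.56) and Cyp3a59 (-0.35), and the highest in Cyp3a13 (0.58). Without it the differences were -1.08 ± 0.25 for Cyp3a11, -0.62 ± 0.09 for Cyp3a16, -0.50 ± 0.16 for Cyp3a41a and -0.38 ± 0.13 for Cyp3a59, while Cyp3a13 turned to 0.03 ± 0.16, which left 5 of 6 negative. The smallest adjusted p was 0.181, for Cyp3a11 and Cyp3a16 among others, so none was called in that fit either. With all animals the last 3 were -0.37 ± 0.27, -0.34 ± 0.21 and -0.26 ± 0.18, and Cyp3a13 and Cyp3a25 were -0.19 ± 0.27 and -0.08 ± 0.12. In males alone Cyp3a16 was -0.23 ± 0.32, Cyp3a59 -0.17 ± 0.22, Cyp3a13 -0.09 ± 0.33 and Cyp3a25 -0.15 ± 0.14. The 3 probes of Cyp3a41a gave -0.19 ± 0.16, -0.17 ± 0.17 and -0.68 ± 0.34. Leaving out wild-type male 4 instead, the highest animal in Cyp3a11, gave -0.58 ± 0.38 for that gene. With each animal left out in turn, the median of the Cyp3a genes ran from -0.442 to -0.179.

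The Cyp2d genes encode oxidases of basic drugs and steroids. Of 8, 7 had a negative genotype difference, with a median of -0.10, and 0 were called or reached an unadjusted p under 0.05. The smallest p was that of the transcribed pseudogene Cyp2d13, which read -0.43 in the female labelled wild type, 0.21, 0.12 and -0.07 in the wild-type males, -0.59 in the transgenic female and -0.10 and -0.13 in the transgenic males. Both females lay below every male, and within each sex the transgenic animals were lower, with a difference of -0.19 ± 0.10 in the model (adjusted p = 0.746). Cyp2d10 had a difference of -0.56 ± 0.29, which was -0.32 ± 0.33 in males alone and -0.81 ± 0.16 without wild-type male 3. The transgenic female was the lowest animal in it. Cyp2d12, Cyp2d22, Cyp2d26, Cyp2d34 and Cyp2d40 lay between -0.13 and 0.00, and between -0.19 and 0.04 in males alone.

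Cyp2d9, a testosterone hydroxylase of male liver, read 0.63, 0.49 and 0.30 in the wild-type males and -0.79 and -0.06 in the transgenic males. The females lay far below, at -5.93 in the one labelled wild type and -5.46 in the transgenic one. The transgenic males were both below every wild-type male, with a difference of -0.90 ± 0.23 (adjusted p = 0.406 in males alone), and the model over both sexes gave -0.50 ± 0.29 (adjusted p = 0.77). Without transgenic male 1, the lower of the transgenic males, that model gave -0.13 ± 0.24. The interaction, the female minus the male genotype difference, was 1.37 ± 0.42 (adjusted p = 0.447). Its spread comes from the males, as there is 1 female per genotype. The interaction and the model over both sexes also draw on the female values, so low that signal over background is unknown.

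The Cyp2j genes encode epoxygenases of arachidonic acid. Of 6, 4 had a positive difference and 2 a negative one, with a median of 0.15 over both sexes and 0.04 in males alone. Cyp2j6 read -0.41 in the female labelled wild type, 0.05, 0.08 and 0.19 in the wild-type males, 0.22 in the transgenic female and 0.16 and 0.17 in the transgenic males. The males overlapped, and only the female labelled wild type stood low. Its difference was 0.23 ± 0.13 (adjusted p = 0.761), or 0.06 ± 0.10 in males alone. Cyp2j5 was alike, at 0.27 ± 0.15 over both sexes and 0.06 ± 0.12 in males. Cyp2j11 gave 0.58 ± 0.33, with wild-type male 3 lowest at -1.05. It was 0.30 ± 0.19 without that animal and 0.87 ± 0.37 in males alone. The others, Cyp2j7, Cyp2j12 and Cyp2j13, lay between -0.17 and 0.08, and between -0.25 and 0.02 in males alone.

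Of the Cyp1 genes, Cyp1a1 oxidises polycyclic aromatic hydrocarbons and is the classical target of the aryl hydrocarbon receptor. It read -0.29 in the female labelled wild type, -0.01, -0.32 and 0.80 in the wild-type males, -0.97 in the transgenic female and -0.13 and 0.28 in the transgenic males. The genotypes overlapped, at -0.26 ± 0.28 (adjusted p = 0.911) overall and -0.08 ± 0.33 in males alone. Cyp1b1 gave 0.03 ± 0.10, or 0.11 ± 0.11 in males alone.

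The 8 other Cyp2 genes had a median difference of 0.02 over both sexes and -0.09 in males alone. Cyp2ab1 read 0.46 in the female labelled wild type, -0.34, -0.17 and -0.33 in the wild-type males, 0.21 in the transgenic female and -0.72 and -0.52 in the transgenic males. Within each sex the transgenic animals were lower, with a difference of -0.32 ± 0.10 in the model (adjusted p = 0.677) and -0.34 ± 0.12 in males alone. Cyp2f2, which bioactivates naphthalene in airway and liver, read -1.49 in the female labelled wild type and 0.29 in the transgenic female, with all 5 males between 0.18 and 0.42. Its interaction of 1.92 ± 0.21 had the smallest p of the 45 genes and was not called (adjusted p = 0.063). Cyp2r1, a hydroxylase that activates vitamin D, gave -0.07 ± 0.16, the olfactory gene Cyp2g1 -0.32 ± 0.14 (-0.15 ± 0.13 in males alone), and Cyp2s1, Cyp2t4, Cyp2u1 and Cyp2w1 lay between 0.01 and 0.11, and between -0.12 and 0.11 in males alone.

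The interaction of genotype and sex was called in 0 of the 45 genes by limma (0.072% of features) and had an unadjusted p under 0.05 in 6 (8.42% of features): Cyp2f2, Cyp2d9, Cyp2j5 and Cyp2j6 with a positive and Cyp2c37 and Cyp2c39 with a negative value. In each the value rests on a single pair of females. The genotype difference was negative in both sexes for 15 genes and positive in both for 8, together 51.1% of the 45, where 50% of all features had the same sign in both.

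**Figure D4:**
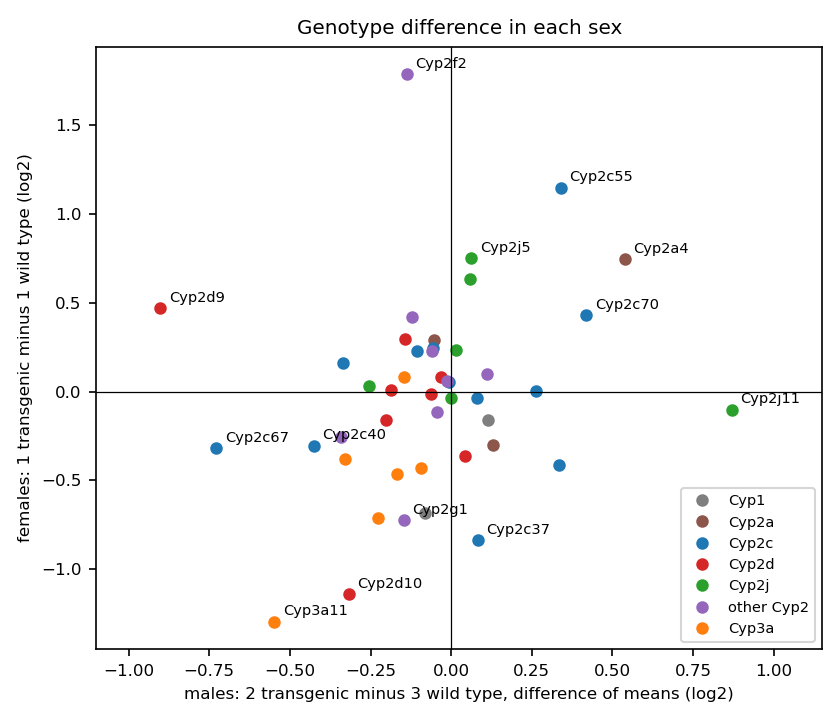
Genotype difference in males (2 against 3) and in females (1 against 1) for each of the 45 genes, on log2 scales. Cyp2f2 lies apart, with a difference of 1.79 between the females and -0.14 in males. Below 0 in both sexes are 5 of 6 Cyp3a genes and 5906 of 22218 features.

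The median size of the female minus male difference was 0.31 over the 45 genes, against 0.11 over all features and 0.19 for the genotype difference of the same genes. Of the 45, 3 were higher in females at an adjusted p under 0.05 by limma, where 0.167% of features were, and 1 was lower, where 0.185% were. At an unadjusted p under 0.05, 10 were higher (3.65% of features) and 10 were lower (5.57% of features). The females were 2 animals, 1 of each genotype, against 5 males.

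Cyp2d9 fell in females, with a difference of -5.76 ± 0.32 (adjusted p = 0.000402), with both females below all 5 males. This is 54.1-fold, though signal over background at so low a value is unknown. Its neighbour Cyp2d10, printed beside it above, read -0.06 and -1.20 in the females and from -0.62 to 0.44 in the males, a difference of -0.49 ± 0.32 that was not called. Cyp2d40 and Cyp2d13 had sex differences of -0.75 ± 0.14 and -0.50 ± 0.11, which missed the threshold (adjusted p = 0.0976 and 0.169). For 7 of 8 Cyp2d genes the females were lower.

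Cyp2c37 rose in females, with 1.31 in the one labelled wild type and 0.48 in the transgenic one, against -1.03, -1.36 and -0.93 in the wild-type males and -0.75 and -1.30 in the transgenic males. The difference was 1.99 ± 0.25, a 3.97-fold excess (adjusted p = 0.0247). Cyp2c39, which hydroxylates retinoic acid, read 1.18 and 0.76 in the females, against -0.96, -0.93 and -0.79 in the wild-type males and -0.45 and -0.67 in the transgenic males. Its difference was 1.72 ± 0.17, or 3.29-fold (adjusted p = 0.00944). Cyp2c50, whose upstream sequence is set beside that of Cyp2c37, differed by 0.35 ± 0.14 and was not called.

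Cyp2ab1 rose in females by 0.78 ± 0.11 (adjusted p = 0.0402), with both above all males. Without the female labelled wild type only Cyp2d9 of the 4 was called. Cyp2c37 then had an adjusted p of 0.18 at 1.5, Cyp2c39 one of 0.0593 at 1.32 and Cyp2ab1 one of 0.202 at 0.83. The 4 calls became 2, Cyp2c39 and Cyp2d9, without wild-type male 2, wild-type male 4 or transgenic male 2. How many of all features were called by sex in the fits with an animal left out was not counted.

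Cyp3a16, a Cyp3a of fetal and female liver, read 1.34 and 0.62 in the females, from -1.49 to -0.43 in the wild-type males and -1.13 and -0.94 in the transgenic males. The difference of 1.91 ± 0.29 just missed the threshold (adjusted p = 0.0572), and it passed without wild-type male 3. Cyp3a41a, 90.7% identical to it in the printed sequence, differed by 0.37 ± 0.24. Cyp2g1, a gene of olfactory mucosa, read 0.69 and -0.04 in the females and from -0.61 to -0.26 in the males (difference 0.73 ± 0.16, adjusted p = 0.168).

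**Figure D5:**
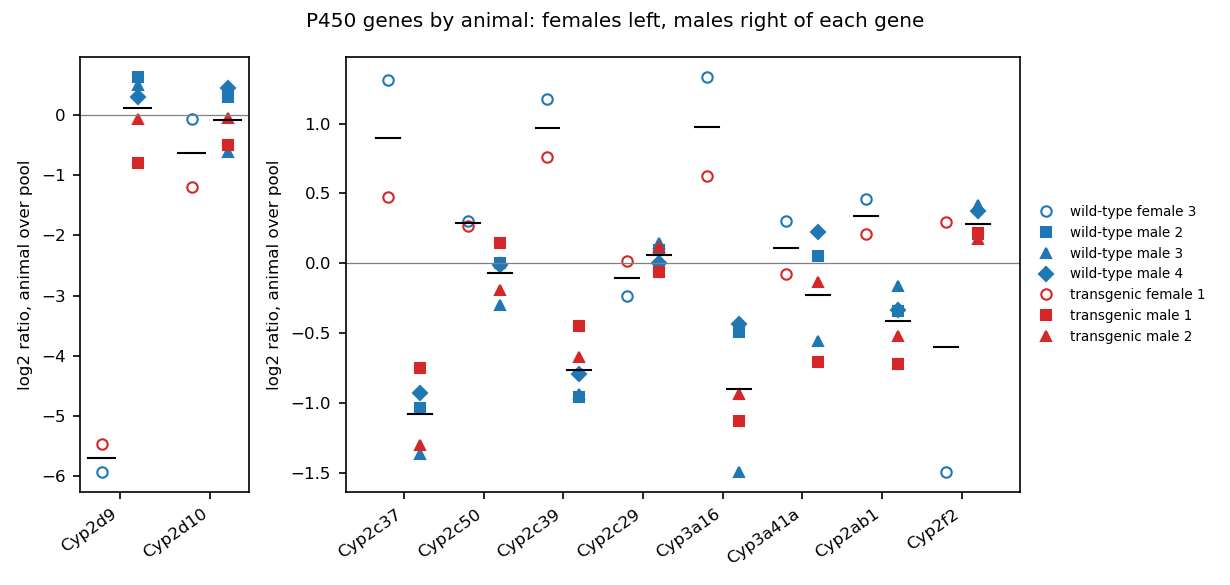
Log2 ratio to the pool of each animal, by sex and genotype, for the genes called between the sexes, their paralogs and Cyp2f2, of which Cyp2d10, Cyp2c50, Cyp2c29, Cyp3a16, Cyp3a41a and Cyp2f2 were chosen after their values were seen; black bars are the means of each sex. Both females lie near -5.7 in Cyp2d9 and above all males in Cyp2c37, Cyp2c39, Cyp2ab1 and Cyp3a16.

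Genes on which P450 function depends were set beside them. Of the redox partners, 8 of 9 were measured, 6 with a positive genotype difference, with a median of 0.05 and 0 at an unadjusted p under 0.05. The gene not measured was Por, which encodes P450 oxidoreductase. The smallest p-values were those of Cyb5b (0.42 ± 0.19) and Cyb5r3 (0.36 ± 0.16), which were 0.21 ± 0.18 and 0.29 ± 0.20 in males alone. Of the haem synthesis genes, 7 of 10 were negative, with a median of -0.07. Alas1, the rate-limiting enzyme of haem synthesis in liver, read 0.15 in the female labelled wild type, -0.70, -0.03 and 0.31 in the wild-type males, -2.49 in the transgenic female and -1.37 and -0.52 in the transgenic males. The transgenic female was lowest. The difference of -1.34 ± 0.41 was not called (adjusted p = 0.677), and in males alone it was -0.80 ± 0.35.

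Of 14 xenobiotic sensors and partners measured, 7 were positive and 7 negative with a median of 0.00. Ahr, the aryl hydrocarbon receptor, gave -0.60 ± 0.29 and Nr1i3, which encodes CAR, gave -0.21 ± 0.10. In males alone they were -0.35 ± 0.32 and -0.13 ± 0.11. Of the 4 other targets of the aryl hydrocarbon receptor 3 were positive, and Nqo1, a quinone reductase, gave 0.30 ± 0.10 (adjusted p = 0.718). In the growth hormone axis, 7 of 12 were negative with a median of -0.03. Socs2, a feedback inhibitor induced by growth hormone, gave -0.94 ± 0.32 (adjusted p = 0.718), or -0.63 ± 0.34 in males alone. By sex, Cux2 and Trim24 of that list rose in females, by 1.63 and 1.68 (adjusted p = 0.0248 and 0.0322).

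Of the 7 genes of these families left out by the rule, 0 were called by genotype over both sexes (0% of features). In males alone 2 were called, Cyp2b9 and Cyp2b13 (0.0315% of features). Cyp2b9 and Cyp2b13 gave 1.71 ± 0.36 and 1.62 ± 0.43, Cyp2b10 and Cyp2b23 0.62 ± 0.09 and 0.51 ± 0.15, and Cyp2e1 -0.49 ± 0.11. In males alone Cyp2b9 was higher by 2.29 ± 0.18 and Cyp2b13 by 2.33 ± 0.17 (limma, both adjusted p = 0.026). Both transgenic males lay above all wild-type males in each, where 11.2% of features did.

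Markers of other cells were read for the same animals. The macrophage and Kupffer cell list (12 of 13 measured) had a median genotype difference of 0.37 and 10 positive members. Its median by animal was 0.41 in the transgenic female and 0.79 in the female labelled wild type. It was 0.36 and 0.16 in the transgenic males and -0.61, -0.65 and -0.12 in the wild-type males, so the males did not overlap. In males alone the median genotype difference was 0.71, with 0 of 12 called. By sex its median difference was 0.71. Genotype medians of the other lists, with males alone in brackets, were 0.07 (0.02) for pericentral and 0.14 (0.26) for periportal hepatocytes. They were 0.01 (-0.003) for endothelium, 0.03 (0.06) for stellate cells, 0.13 (0.15) for bile duct and 0.00 (-0.04) for lymphocytes. Neutrophils gave 0.02 (0.10), red blood cells 0.22 (0.00), exocrine pancreas 0.09 (0.04), intestine 0.05 (0.01) and olfactory and airway epithelium -0.02 (0.02). The pancreas marker Cela1 was lower in females (difference -2.22, adjusted p = 0.0255), while the median sex difference of its list was 0.02. The airway marker Sftpb read -1.47 in the female labelled wild type and -0.86 in the transgenic female, and the median sex difference of its list was 0.00. The part of these cells in the P450 values was not tested.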

How the data were processed

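The deposited values are log10 ratios, 1 per probe and animal, that the authors made from 2-colour arrays. Per the labels' protocols, RNA was purified on Qiagen RNeasy columns with DNase and amplified by an aminoallyl MessageAmp II method. Background correction, normalization and the combining of dye swaps are not given in the sources used here. The values end at exactly -2 and 2, the limits of a log10 scale, and the column medians run from -0.0042 to 0.0093. Their centring is unknown, as is signal over background, since scanner intensities were not used, so the number of arrays limits the precision. That the pooled mice are those on the arrays is not stated.

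Ratios were multiplied by 3.32 to log2, and probes of a gene were averaged. Of 23574 probes, 17824 had 1 symbol in the platform annotation, 50 several and 5700 none, and 0 member symbols needed an update. Genotype and sex were fitted with limma 3.58.1 (lmFit, eBayes) in R 4.3.3, the interaction in its own model, with Benjamini-Hochberg adjustment over all features. The code was tested on simulated data. That the animals came from separate litters is not stated, so p-values measure only the spread between these animals.

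The members and lists were chosen with earlier results of these data known. Animal values are given for members with an unadjusted genotype p under 0.05, no overlap, or a call, and for the smallest p of each subfamily. Other animal values were chosen after they were seen. Alternatives were centring, quantile normalization, leaving out a term, males alone, robust or trended variance, single probes, named genes alone and leaving out each animal.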

Additional observations from a re-analysis of the deposited data

Results flagged for a closer look

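In 6 genes the female labelled wild type lay far from the 3 wild-type males by Dixon's criterion for 4 animals. Chance alone meets it in about 1 of 20 groups of like animals, but this group mixes the sexes. The share of all features that met it was not counted. The flagged animal is also the only wild-type female, so its sex and its own deviation cannot be told apart. It was highest in Cyp2c37 (1.31, next -0.93), Cyp2c39 (1.18, next -0.79), Cyp2g1 (0.69, next -0.26) and Cyp2c38 (0.34, next -0.10). It was lowest in Cyp2d9 (-5.93, next 0.30) and Cyp2f2 (-1.49, next 0.21). The transgenic female read on the same side of the wild-type males in Cyp2c37 (0.48), Cyp2c39 (0.76), Cyp2g1 (-0.04), Cyp2c38 (0.35) and Cyp2d9 (-5.46), and among the males in Cyp2f2 (0.29).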

How the results depend on the processing

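No gene of the 45 was called by genotype under any alternative. Leaving out each animal, the median genotype difference ran from -0.0606 to 0.00133, and the genes called by sex from 1 to 5. Genes without overlap of the genotypes were 1 with all animals, 12 in males alone and 2 to 8 with an animal left out. In males alone 11.2% of all features lay above and 11.4% below, near the share among the 45. The share of all features with an animal left out was not counted, either for overlap or for the calls by sex. The median sex difference, -0.09, was 0.0152 over single probes and ran from -0.0987 to 0.0513 with an animal left out. The genotype difference of Cyp2c37 turned to 0.0831 in males alone (-0.451 to 0.0831 with an animal left out), and that of Cyp2c39 ran from -0.0292 to 0.335; neither was called. The sex call of Cyp2d9 held under every alternative. That of Cyp2ab1 was lost with quantile normalization, without a genotype term and with a trended variance (adjusted p 0.08, 0.157 and 0.0629), and with 6 of the 7 animals left out in turn (0.0993 to 0.202). The cause of these shifts was not tested. Each fit without a female leaves 1 female, assumed to vary like the males. No paired analysis was possible because the groups share fewer than 2 animal numbers. With 1 female per genotype, differences between females have no replicate check.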
